A study of Rattus norvegicus with 35 samples.

Results

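Rat chromosome 7 carries several clusters of odorant receptor (OR) genes, and the 97 array probes of these genes are described here in the olfactory epithelium of newborn, adult and old rats. The members were every probe whose gene name begins with Olr or whose description reads olfactory receptor, and whose coordinate in the scanner files (rat build rn3) is on chromosome 7. They were 97 of the 1136 OR probes and of the 41012 probes on the array, and stood for 96 gene names, since Olr1029 had 2 probes. All rats were of the Brown Norway strain. The newborn group was 19 pups aged 3 to 5 days, of sex not known, from 4 litters (L1 with 4 pups, L2, L3 and L4 with 5 each), with 1 array per pup. The adult group was 4 males of 9 weeks and the old group 4 males of 22 months, each with 2 arrays, one per nostril, averaged to 1 value per rat. Sex was thus not matched between pups and older rats, and its part was not tested.

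ORs are G protein-coupled receptors of the cilia of olfactory sensory neurons. A mature neuron expresses 1 OR allele at a high level, so the RNA level of an OR in whole epithelium follows the number of neurons that chose it and the transcript level in each. Fewer cells of a type and less RNA per cell cannot be told apart in such bulk samples. OR genes lie in tandem clusters that grew by local duplication, and neighbours often belong to the same subfamily. The clusters of rat chromosome 7 hold mainly the OR6C subfamily, with OR7A, OR8S, OR9, OR10 and a few other receptors.

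Each level below is the log2 of a probe's background-subtracted intensity divided by the median of its array, so that 0 is the median probe. Differences are log2 differences with their SE from 1 limma fit over all probes and 27 rats. Each litter had its own mean in this fit, so that SE and p leave out the spread between litters. A difference was called at an adjusted p under 0.01 (Benjamini-Hochberg over all probes). Above background means a positive, significant, uniform and unsaturated signal flagged as well above background.

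Between 59.7% and 69.2% of all probes were above background on each of the 35 arrays, with overlapping ranges in the 3 ages. Cell type markers moved with age in the same samples. Of the 12 mature neuron markers with a probe, 11 were lower in newborn than in adult rats and all 12 lower than in old rats, and their summed level, on the log2 scale, was 8.04 to 9.09 in pups, 10.4 to 10.9 in adults and 11.0 to 11.5 in old rats. Of 11 immature neuron markers, 7 were higher and 2 lower in newborn than in adult rats, and 8 were higher than in old rats. All 5 skeletal muscle markers were higher in newborn rats, with a summed level of 4.03 to 9.04 in pups and at most 0.87 in older rats. The part of these differences in the OR levels was not tested. The L1 and old arrays were scanned on a shared day and the adult arrays on days of their own, so that scan day and adult age cannot be told apart. The L2, L3 and L4 arrays were scanned on days shared with no older rat and not with L1. For these litters scan day cannot be told apart from age against old rats either, nor from litter against L1.

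The members fell into 5 blocks when the chromosome was split wherever the next probe lay over 1 Mb away. The first block, from 2314346 to 8465470, held 71 probes from Olr875 to Olr1072. The second, from 12016512 to 12683791, held 14 probes, among them all 10 OR7A members. The third held 4 probes from 14033628 to 14386758, with 2 of the OR10H subfamily, and Olr1096 stood alone at 16550363. The last block lay far from the others, from 137002819 to 137316820, with 7 probes, 5 of them OR8S and 1 (Olr1111) OR11M. A RefSeq gene matched 90 probes by accession or symbol, and the present symbol or a synonym gave a subfamily for 74. The OR6C subfamily accounted for 45 of these, all of them in the first block.

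The sequences of 9 probes carry the results that follow, because each probe of 60 bases has to tell its receptor from close relatives. The first 6 are the receptors higher in newborn than in both adult and old rats, and the last 3 are receptors with similar probes that were higher in newborn than in old rats. Capitals mark the longest run of 15 or more bases that is also found in another probe of the array, except in XM_345782, where they mark a stretch that occurs a second time within the probe.
Olr1079: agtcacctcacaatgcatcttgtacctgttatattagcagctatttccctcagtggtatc
Olr1055: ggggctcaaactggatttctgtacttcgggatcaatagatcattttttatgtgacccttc
Olr921: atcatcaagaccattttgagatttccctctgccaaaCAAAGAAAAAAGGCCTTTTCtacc
Olr995: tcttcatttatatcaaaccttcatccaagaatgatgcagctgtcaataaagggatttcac
Olr901: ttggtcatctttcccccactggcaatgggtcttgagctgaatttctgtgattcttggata
XM_345782: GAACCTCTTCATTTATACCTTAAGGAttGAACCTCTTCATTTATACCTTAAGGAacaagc
Olr922: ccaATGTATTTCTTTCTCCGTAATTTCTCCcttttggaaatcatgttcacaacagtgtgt
Olr951: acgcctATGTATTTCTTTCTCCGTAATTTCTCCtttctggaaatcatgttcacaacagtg
Olr962: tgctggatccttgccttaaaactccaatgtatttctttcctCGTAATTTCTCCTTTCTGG

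The probes of Olr1079, Olr1055, Olr995 and Olr901 shared no run of 15 bases with another probe of the array. That of Olr1055 had 43 of 60 bases in common with that of Olr1024. Probes were compared with probes and not with transcripts, so their binding to transcripts of relatives was not tested. The probe of Olr921 shared 20 bases with that of Olr1014, a receptor called lower in newborn rats but above background on adult arrays alone. The probe of XM_345782, a predicted gene model annotated as similar to a mouse OR and without a RefSeq gene in the table used, consists largely of a 26-base stretch present in 2 copies. The next longest such repeat within a member probe was 9 bases. In build rn3, Olr901 and Olr995 lie on the plus strand and the other 4 newborn-higher receptors on the minus strand. Among all members, 30 probes shared a run of at least 15 bases with another probe.

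The 6 receptors higher in newborn rats were 6.19% of the members, against 14.4% of all probes that were higher than in both older groups. Olr1079 (Or7a38d in RefSeq, at chr7:12128034-12128093) was measured at 0.72 to 2.05 in the pups, with a median of 1.5. The adult rats were at -1.44, -0.71, 0.13 and 0.34, and the old rats at -1.73, -1.34, -1.23 and -1.10, so that no pup overlapped with an older rat. The difference was 1.86 ± 0.26 against adult (adjusted p = 1.38e-06) and 2.79 ± 0.26 against old rats (adjusted p = 3.72e-09), or 3.64-fold and 6.93-fold. The call of Olr1079 against adult was lost with the methods' t-test (adjusted p = 0.0343). That test was run here with unequal variances and all pups as 1 group. The study tested each litter on its own and reported Olr1079 as higher than in adults in each litter.

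Olr1055 (Or6c216, at chr7:7860982-7861041) ranged from 0.26 to 1.73 in the pups, with a median of 1.17. The adults were at -1.52, -0.84, -0.76 and -0.72, and the old rats at -2.15, -1.54, -0.82 and -0.63, again with no overlap. The newborn level was 4.06-fold higher than in adult (log2 2.02 ± 0.26, adjusted p = 4.65e-07) and 5.10-fold higher than in old rats (log2 2.35 ± 0.26, adjusted p = 6.48e-08). The call of Olr1055 against old rats was lost with the methods' t-test on all pups as 1 group (adjusted p = 0.0111). The study, testing litter by litter, reported it as higher than in old rats in each litter. Adult and old rats differed by 0.33 ± 0.33, with an adjusted p of 0.475.

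XM_345782 (at chr7:5848682-5848741) ranged from -2.07 to -0.72 in the pups and was above background on 17 of 19 newborn arrays, 1 of 8 adult arrays and no old array. The adults were at -4.67, -3.91, -3.25 and -3.06, all below every pup. The fitted difference against adult was 2.44 ± 0.31 (adjusted p = 3.45e-07). Against old rats only a bound can be given, at least 1.84-fold higher in newborn (adjusted p of the fit 8.50e-11). Fitted differences of such a dim probe depend on how low values are treated, and with a normexp background correction they were 0.25 against adult and 0.43 against old rats, still called. The call of XM_345782 against adult was lost with the methods' t-test (adjusted p = 0.012).

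Olr921 (Or6c35d, at chr7:4080728-4080787) ranged from -0.56 to 1.71 in the pups, with a median of 1.06. The adults were at -1.05, -0.63, -0.13 and -0.03, within reach of the lowest pup, and the old rats at -1.62, -1.19, -1.14 and -1.01, below all pups. The newborn level was 2.56-fold higher than in adult (log2 1.35 ± 0.24, adjusted p = 3.48e-05) and 4.39-fold higher than in old rats (log2 2.13 ± 0.24, adjusted p = 7.55e-08). The mean of L1 was 0.19, and those of L2, L3 and L4 were 1.20, 1.31 and 0.88. Olr921 stayed called against both older groups in all 13 other fits with every rat and without each of the 27 rats.

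The differences of Olr995 and Olr901 were smaller. Olr995 (at chr7:6336349-6336408) ranged from -1.26 to 0.71 in the pups and overlapped with both older groups, at 0.81 ± 0.22 against adult (adjusted p = 0.00321) and 0.75 ± 0.22 against old rats (adjusted p = 0.00619). One or both of these calls were lost in 6 of 13 other fits, among them those with slide or scan day as a random block. They were also lost without adult rat 16 (adjusted p = 0.0275) or without old rats 17, 19 or 20 (adjusted p = 0.0501, 0.0224 and 0.0114). The mean of L1 was -0.53, and those of L2, L3 and L4 were 0.18, 0.36 and 0.02. Olr901 (Or6c6i, at chr7:3457589-3457648) was 0.43 ± 0.14 higher in newborn than in adult rats (adjusted p = 0.00887), where the median of all probes differed by 0.10. This call was lost in 5 of 13 other fits, and it held in 8 of 27 fits that each left out 1 rat, among them none without an adult rat, where adjusted p values were 0.0127 to 0.0487. Against old rats its difference was 0.90 ± 0.14 (adjusted p = 5.72e-06), and no pup overlapped with an old rat.

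Olr1079, Olr1055 and XM_345782 were also higher in the L1 pups than in the old rats, whose arrays were scanned on the same day. In a limma fit of these 8 rats the differences of Olr1079 and Olr1055 were 2.60 ± 0.31 and 2.19 ± 0.44 (adjusted p = 0.000698 and 0.00678). For XM_345782 (adjusted p = 0.000649) no size is given, since it was above background on no old array. Olr921, at 1.43 ± 0.38 (adjusted p = 0.02), and Olr901, at 0.77 ± 0.17 (adjusted p = 0.0108), had the same direction there without a call, and Olr995 was at 0.21 ± 0.37 (adjusted p = 0.685).

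Position was examined because newborn-higher genes could have lain side by side. None of the 92 adjacent pairs of members within a block consisted of 2 receptors called higher than both older groups. With only 6 such receptors among 97 members, few or no such pairs would be met wherever they lay. The count therefore cannot decide whether they cluster. The 6 newborn-higher receptors had 12 neighbours, the next probed receptor on each side. Of these, 4 were lower in newborn than in adult rats and 5 lower than in old rats, 1 was higher than in adult and 2 higher than in old rats, and the remaining ones were not called. Among all members, 44.3% were lower than in adult and 48.5% lower than in old rats, and 9.28% and 11.3% were higher. So few neighbours do not set them apart from the other members.

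Olr1079 stood between receptors of the opposite direction. Olr1078 (Or7a37), 22.1 kb before it, was lower in newborn rats by 0.92 against adult and by 1.91 against old rats, values of -0.92 ± 0.18 and -1.91 ± 0.18. Olr1082 (Or7a38c), 65.0 kb after it, was at -1.37 ± 0.24 and -2.41 ± 0.24. XM_345782 was followed after 57.3 kb by Olr984 (Or6c3), at -2.64 ± 0.29 and -3.08 ± 0.29. On its other side, 22.8 kb away, Olr982 (Or6c66b) was 1.86 ± 0.29 higher in newborn than in adult rats but not than in old rats, at -0.83 ± 0.29. Other fits called Olr982 lower than in old rats, with 75th percentile scaling (adjusted p = 0.0035), normexp (0.00151), a floor of 0.1 (0.00668) and the methods' t-test (0.00083). Its call against adult rats was lost with that t-test (adjusted p = 0.0289).

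The flanks of Olr921 and Olr901 were mixed. Olr920, 22.8 kb before Olr921, was at -0.76 ± 0.18 against old rats, and Olr922, 32.9 kb after it, was higher in newborn than in old rats. Olr901 lay between Olr896 (Or6c1h) and Olr903 (Or6c35). Olr896 was above background on no newborn array, and was at least 1.80-fold lower in newborn than in adult and 1.26-fold than in old rats, the latter call being lost without any 1 of the 4 old rats or without pup 11 of L1 (adjusted p = 0.0102 to 0.032). Olr903 was 0.68 ± 0.17 higher in newborn than in old rats. For Olr995 and Olr1055 no neighbour was called in the main fit. Olr1057, after Olr1055, was called lower than in adult rats with the methods' t-test (adjusted p = 0.00786). Olr996, after Olr995, was at -0.79 against adult rats (adjusted p = 0.0388, and 0.0123 against old rats). Olr996 was called lower in both comparisons with the rat as a random block (adjusted p = 0.00869 and 0.00155). The same held with 75th percentile scaling (0.00675 and 0.00267) and with litter means (0.00676 and 0.00231). Some further fits called it in a single comparison. It was above background on 1 newborn, 5 adult and no old arrays. Of the neighbours of Olr995 and Olr1055, the preceding ones, XM_345786 and Olr1052, were above background on no array.

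Among all adjacent members the difference of one and that of the next correlated with r = 0.17 against adult and r = -0.02 against old rats over 92 pairs, which share arrays and probes at background. Over 37 successive pairs of receptors expressed in all 6 groups, r was -0.05 and 0.16. Coordinates of build rn3 are not always those of the present map. In the RefSeq order (GRCr8), 75 of 89 member genes had the same neighbours, and this held for the 5 newborn-higher receptors that have a RefSeq gene, when only these 89 genes were considered.

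The receptors Olr922 (Or6c6f), Olr951 and Olr962 (Or6c6h) differed between newborn and old rats and have probes that overlap in sequence. The probes of Olr922 and Olr951 have 54 of 60 bases in common at the best ungapped offset, with an unbroken run of 27, and those of Olr951 and Olr962 share a run of 19. All 3 have their genes at different places of the first block. Olr922 was above background on 14 of 19 newborn, 4 of 8 adult and no old arrays, Olr962 on 15, 4 and none, and Olr951 on 6, 2 and none. They were called higher in newborn than in old rats, by at least 1.58-fold, 1.24-fold and 1.07-fold (adjusted p = 2.40e-05, 1.64e-05 and 3.77e-04). The call of Olr922 was lost with the normexp correction (adjusted p = 0.0171) and that of Olr962 with the methods' t-test (adjusted p = 0.0116). Against adult rats the differences were 0.46, 0.35 and 0.59, none of them called. The signals of such probes cannot be assigned to 1 receptor each. Olr901, whose RefSeq symbol places it in the same OR6C6 group, has a probe with at most 7 bases in a row in common with these, and Olr1007 (Or6c6b) was above background on no array.

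More receptors of the chromosome were lower than higher in newborn rats. In newborn rats 43 of 97 members (44.3%) were lower than in adults, against 19.8% of all probes, and 9 (9.28%) were higher, against 26.8%. Against old rats, 47 members (48.5%) were lower, against 22.7% of all probes, and 11 (11.3%) were higher, against 20.4%. Both older groups were higher than newborn rats for 33 members (34.0%), against 11.2% of all probes. Some calls fell on probes at background, 3 of the 43 and 5 of the 47 being well above background on no array of either group. The median difference of the members was -0.91 against adult and -0.92 against old rats, where the medians of all probes were 0.10 and -0.04. A fitted fold of at least 5 was reached by 2 higher and 10 lower calls against adult rats (2.26% and 1.65% of all probes), by 3 and 14 against old rats (2.96% and 1.85%) and by 1 and 1 between adult and old rats (1.22% and 1.11%). These counts include dim probes, whose fitted folds depend on the floor. The 2 higher than adult were XM_345782 and Olr1006, above background on 1 and 0 adult arrays. Among those lower than adult, Olr896, Olr959, Olr1012 and Olr1014 were above background on no newborn array.

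Receptors lower in newborn rats with no overlap between rats were ranked by the smaller of their 2 differences, and the first 3 of them, Olr1111, Olr1102 and Olr1104, lay in the distal block. Olr1111 (Or11m3) ranged from -2.56 to 0.12 in the pups, from 1.45 to 1.91 in adults and from 1.27 to 1.81 in old rats. It was 8.33-fold lower than in adult (log2 -3.06 ± 0.28) and 7.49-fold lower than in old rats (log2 -2.91 ± 0.28). Olr1104 (Or8s16) ranged from -2.78 to -0.57 in the pups and from 1.52 to 2.15 in old rats, differing by -2.78 ± 0.25 and -3.67 ± 0.25. Olr1102 differed by -3.08 ± 0.54 and -2.91 ± 0.54, with a lowest pup at the floor of -6.64. In this block 5 of 7 members were lower in newborn than in adult rats, 5 lower than in old rats, and none was higher.

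The other receptors of this kind came from the first 2 blocks. Olr984 ranged from -3.86 to -1.74 in the pups and from -0.23 to 0.59 in the older rats. Its probe has 53 of 60 bases in common with that of Olr894 (Or6c3d), for which the differences, -1.15 and -1.42, were not called. Olr1084 (Or7a39) differed by -2.42 ± 0.22 and -3.42 ± 0.22, Olr1063 (Or6c33) by -1.96 ± 0.47 and -2.12 ± 0.47, and Olr1024 by -1.57 ± 0.23 and -1.91 ± 0.23. The calls of Olr1063 were lost with the floor set before scaling (adjusted p = 0.0679 and 0.0539). Olr1014 (Or6c75) was above background on 3 adult arrays and on no newborn or old array, so that no fold is given.

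The OR7A receptors showed how relatives in 1 cluster can differ. Of the 10 members, 8 were lower in newborn than in adult rats and 6 lower than in old rats, and only Olr1079 was higher, in both comparisons. However, 2 of the 10, Olr1073 and Olr1076, were above background on no array, so that the calls lower than adult include a probe never detected. Only 6 of the 10 were expressed in all 6 groups. The RefSeq symbols place Olr1079, Olr1082, Olr1083 and Olr1085 in 1 group, as Or7a38d, Or7a38c, Or7a38 and Or7a38e. Olr1083 was at 0.72 to 2.38 in the pups, 2.68 to 2.93 in adults and 3.78 to 3.92 in old rats. Olr1082 was at 0.59 to 2.38, 2.58 to 2.81 and 3.64 to 3.92. The level thus rose from newborn to adult and again to old rats for both, with adult to old differences of -1.06 ± 0.27 and -1.05 ± 0.31 (adult minus old, adjusted p = 0.0029 and 0.00889), while that of Olr1079 differed between adult and old by 0.93 ± 0.33 in the other direction (adjusted p = 0.0265, not called). Olr1085 was above background on 5 adult arrays only. The probes of Olr1079 and its 3 relatives share no run of 15 bases, but binding of a probe to a relative's transcript was not tested.

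Detection by age followed the levels only in part. The number of members expressed, above background on at least 3 arrays of a litter or 6 of 8 adult or old arrays, was 50, 49, 52 and 50 in L1 to L4, 55 in adult and 52 in old rats. It was 41 in all 6 groups together. Receptors expressed in all 4 litters and in neither older group were Olr922, Olr962 and XM_345782. Olr984 and Olr1075 (Or7a41) were expressed in adult and old rats and in no litter, and Olr1075 was above background on no newborn array. Another 15 members were above background on no array of the study and 27 on all 35.

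Per array, the litters had 45.4 to 53.0 of the 97 members above background, the adults 52.5 to 62.0 and the old rats 53.0 to 56.5. The share of members above background exceeded that of the 1039 other OR probes by 2.91 to 7.07 percentage points in the litters. The same difference was -2.60 to -0.375 points in adults and -9.37 to -8.26 points in old rats, and the 3 ranges did not overlap. When every positive and significant signal was counted, the newborn minus adult value of this measure changed sign, from 6.71 to -0.75 points. The median level of the members was 0.19 to 0.42 above that of the other ORs in the litters, -0.13 to 0.08 in adults and -0.51 to -0.34 in old rats. In the calls, 48.5% of the members and 63.0% of the other ORs were lower in newborn than in old rats, and 44.3% and 42.0% lower than in adults. These values are given without a test.

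Between adult and old rats 19 members (19.6%) were lower in adults, against 20.2% of all probes, and 7 (7.22%) were higher, against 11.7%. Olr982 had the largest difference among those lower in adults, with adult levels of -4.47, -3.02, -2.98 and -2.61, against -0.80, -0.67, -0.45 and -0.41 in old rats. The difference was -2.69 ± 0.37 (adjusted p = 3.94e-06), and the pups, at -3.02 to -0.46, overlapped with both. Olr982 was above background on 18 newborn, 2 adult and 8 old arrays. The size of its adult to old difference depended on the processing, from -3.49 to -0.58 over the other fits with every rat. The call was lost with the methods' t-test (adjusted p = 0.0214). Olr876 (Or10p22) was at -1.80 to -1.06 in adults and -0.04 to 0.36 in old rats, a difference of -1.73 ± 0.26 (adjusted p = 1.11e-05). Olr1087 (Or1i2) followed with -1.52 ± 0.29 (adjusted p = 0.000149). XM_234865 was called too (adjusted p = 0.00906) but was above background on 1 old array and no other, so that no size is given, and its call was lost in 6 of 12 other fits and in 15 of 27 that left out 1 rat.

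Olr952 had the reverse pattern. Its level was -0.84, -0.66, -0.63 and -0.18 in adults and -4.11, -3.19, -3.11 and -2.31 in old rats, and 2.60 ± 0.36 higher in adults (adjusted p = 3.57e-06). It was above background on all 8 adult arrays, 1 old array and 9 of 19 newborn arrays. XM_345782, Olr1007 and Olr1014 were also called higher in adult than in old rats but were well above background on no old array, and their signal at that age gives no fold. They were above background on 1, 0 and 3 of 8 adult arrays. Each of these calls was lost with the rat, the slide or the scan day as a random block and with the methods' t-test. The number higher in adults was 2 with the rat or the slide as a random block and 1 with the scan day. Of all adult to old calls 26.9% were higher in adults, where the share over all probes was 36.7%. With the normexp correction these shares were 12.9% and 51.8%, with the floor set before scaling 16.7% and 35.9%, with quantile normalization 34.6% and 51.8%, and with the 75th percentile 27.6% and 43.3%.

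Among litters, 4 members (4.12%) differed by the F test of the fit, against 22.6% of all probes. Olr950 (Or6c212) had mean levels of -2.09, -0.56, -0.84 and -0.94 in L1 to L4 (adjusted p = 0.00719), being lowest in L1. Olr952 had -2.12, -3.13, -1.60 and -1.99 (adjusted p = 0.00399), being lowest in L2. Olr1016 and Olr1057 were above background on no newborn array, and their differences are not read. With slide or scan day as a random block limma called no member among litters, where 7 and 8 members had an unadjusted p under 0.05, and eBayes with a trend called 6. The newborn-higher receptors had adjusted p values among litters of 0.0163 (Olr921) and more.

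Genes of odour transduction and of OR expression, 24 of 29 listed with a probe, give the setting of these values. Of these, 15 were lower and 2 higher in newborn than in adult rats, and the same numbers held against old rats. Gnal, the olfactory G protein, was at -2.03 ± 0.16 and -2.24 ± 0.16, and Adcy3, the cyclase it activates, at -2.67 ± 0.14 and -2.94 ± 0.14. All 5 measured channels and transporters were lower, as Cnga2, the channel opened by cyclic AMP, at -1.90 ± 0.16 and -2.28 ± 0.16. Rtp1, which helps ORs to the surface, was at -1.86 ± 0.19 and -1.56 ± 0.19. The other listed export genes, Rtp2 and Reep1, were at 0.14 and 0.12 against adult rats, not called. Against old rats Rtp2 was lower, at -1.52 ± 0.44, and Reep1, at -0.20, was not called. Of 7 genes of OR gene choice, Lhx2, Ldb1 and Ebf1 were not called in any comparison, and Ebf2, at -1.32, and Lbr, at -0.63, were lower in newborn than in adult rats. Atf5, at 0.81, was higher than in adult rats, and Ebf3, at 0.54, higher than in old rats.

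Olr1029 was the only gene with 2 probes. One was above background on 3 adult and 2 old arrays and the other on no array, and neither was called in any comparison. The second shares 31 bases in a row with the probe of XM_222377.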

How the data were processed

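Total RNA of olfactory epithelium was hybridised to 35 one-colour Agilent 44K arrays. The authors scanned them with Feature Extraction (9.5.1.1 and 9.5.3.1 per the file headers) and deposited, per spot, background-subtracted intensities with the mean and background intensities and quality flags. They also deposited a matrix of GeneSpring ratio values, each array divided by its median, used here as an alternative only.

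Spots flagged as outliers were left out (890 values on 494 probes). Intensities were divided by the array median, floored at 0.01 and log2-transformed, and both nostrils of each older rat averaged. limma 3.58.1 (R 4.3.3; lmFit and eBayes) was fitted over 41012 probes and 6 groups, newborn being the mean of the 4 litters. The pups of a litter share a mother. Since each litter had its own mean, SE and p values measure the spread between rats within a litter or age group, not between litters. With litter means as newborn replicates, Olr995 alone of the 6 newborn-higher receptors lost its calls (adjusted p = 0.016 and 0.0252). The adjusted p of Olr921 against adult was then 0.00236. Where a group had no array with a probe well above background, only a bound was given, taken from the lowest level of such probes on each array. The fit was tested on simulated data. The number of arrays limits the precision. Probes were named by the files' gene names without the suffix predicted, and through the RefSeq table of GRCr8. Named receptors were those called higher in newborn than in both other ages with their neighbours, the 8 with the largest smaller difference below both without overlap, the 4 called with the largest adult to old difference each way, the 3 with the smallest p among litters, Olr1029 and 7 receptors fixed by name (Olr1079, Olr1055, Olr921, Olr995, Olr922, Olr962, XM_345782). The others named were chosen after their values were seen. Members and lists were chosen with earlier results of these data known, so scores over the members carry no p.

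Alternatives were other scalings, background corrections and floors, the matrix, a filter on probes expressed in common, random blocks, litter means, the methods' t-test on rats, a fold threshold of 5 and each rat left out.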

Additional observations from a re-analysis of the deposited data

Results flagged for a closer look

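Among 66 groups of 4 or 5 rats examined for a sample far from the others, 6 held one, where chance alone gives about 1 in 20. In adult rats, the lowest level of Olr922 was -2.23, with the nearest rat at -1.85, that of Olr962 was -2.31 against -2.18, and that of Olr1055 was -1.52 against -0.84. In L3 the lowest pup for Olr995 was at -0.23, with the next at 0.42. In L4 the lowest pup for Olr1055 was at 0.69, with the next at 1.15. In L3 1 pup had a share above background 6.93 percentage points over that of the other ORs, with the next at 2.60.

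The litters differed for Olr1016 (adjusted p = 0.000588), Olr952 (adjusted p = 0.00399) and Olr1057 (adjusted p = 0.00718) by limma's F test, of which only Olr952 was above background in newborn rats.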

How the results depend on the processing

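Each value that answers a comparison was set against each alternative with every rat. Of these pairs, 128 stayed in the same direction and close to the main value, 24 moved further and 1 reversed. Scaling by the 75th percentile called 5 members higher in newborn than in adult rats in place of 9. With a fitted fold of at least 5 in addition, dim probes included, 2 were higher and 10 lower against adult, 3 and 14 against old rats, and 1 and 1 between adult and old. Restricted to probes expressed in common, where fewer members are tested, 24 members were lower against adult, 6 higher and 28 lower against old rats, and 1 higher in adult than old. The number higher in adult than in old rats, 7, was also 4 with the normexp correction, 4 with the floor before scaling, 2 with the rat or the slide as a random block, 1 with the scan day and 0 with the methods' t-test (15 at an unadjusted p under 0.05), and 3 to 8 when a rat was left out, with 3 without old rat 17 or 20 and 4 without adult rat 13 or 14, pup 22 of L2 or pup 32 of L4. The number called among litters was 1 with normexp, 0 with the slide or scan day as a random block and 2 to 7 when a rat was left out, with 2 without pup 11 of L1 or pup 25 of L2 and 7 without pup 24 of L2. The methods' t-test called 3 members higher than in both older groups, Olr901 and Olr921 of the 6 named and Olr1006, in place of 6. When every positive and significant signal counted as above background, the share of members minus that of other ORs was -0.75 points for newborn minus adult, 3.55 for newborn minus old and 4.30 for adult minus old. Over receptors above background on at least 0.5 of all arrays, the median level of members minus that of other ORs differed by 0.21 from newborn to adult, in place of 0.32. The cause was not tested in these cases. No paired analysis was possible because the rat numbers are not shared between groups. Signal over background limits the dim members, for which the text gives bounds.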
